A study of Canis lupus with 24 samples.

Results

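The genes described here are those of cholesterol and fatty acid synthesis under the control of the sterol regulatory element-binding proteins (SREBPs), in K9TCC cells. K9TCC is a line grown from a dog's transitional cell carcinoma of the bladder. A list of 38 genes was taken, and each gene was represented by the array feature annotated with its symbol alone, or the brightest such feature by mean signal over all arrays. Of the 38 genes, 33 had such a feature among the 16295 genes tested. The other 5 (IDI1, LSS, MSMO1, INSIG2 and STARD4) were not analysed here. The measured genes were 7 of 8 mevalonate enzymes, 9 of 11 squalene and sterol enzymes, 4 of 6 genes of the SREBP machinery and sterol transfer, all 10 listed fatty acid enzymes, and 3 target genes of the liver X receptors (LXRs). The first 3 of these classes, with 20 measured genes, form the sterol branch. The 10 fatty acid enzymes form the fatty acid branch, and the LXR targets were kept apart from both.

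Expression was measured on 24 arrays in 8 groups of 3, all of the 1 line K9TCC. Spheres and adherent cells were each treated with 50 uM mavacoxib, a drug that inhibits the enzyme COX-2, or with its vehicle DMSO, for 24 hours. Both culture forms were also transfected with an siRNA labelled as directed at COX-2 or with a negative control siRNA, for 48 hours. Spheres, called cancer stem cell spheres in the labels, were kept in ultralow attachment plates in a serum-free medium that held insulin and growth factors. Adherent cells were kept in a medium with fetal bovine serum, so culture form and medium cannot be told apart. For the transfections the labels state that cells of both forms were plated a day earlier, in conditions given as anchorage dependent.

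Cells make cholesterol from acetyl-CoA through mevalonate, farnesyl diphosphate, squalene and a series of sterol intermediates. SREBPs are membrane-bound transcription factors of the endoplasmic reticulum. SCAP escorts them to the Golgi for release when sterols are low, and INSIG proteins hold the complex back when sterols are plentiful. SREBP2, the product of SREBF2, acts mainly on cholesterol genes, and SREBP1, the product of SREBF1, mainly on fatty acid genes. LXRs respond to oxysterols and switch on genes of cholesterol export, among them ABCA1 and ABCG1. These roles are known mainly from human and rodent cells.

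The values are log2 signals, so a difference of 1 is a 2-fold change. No detection call came with them, and a signal under 4.82, the median of all values, may be background, so that differences from such a signal are lower bounds. PMVK, FADS1 and ABCG1 had a group mean under that level, and no measured gene of the list lay under it on all arrays. Group means of the 33 genes ran from 3.34 (ABCG1) to 12.47 (SCD). Arrays of a group correlated at 0.988 to 0.997 over all genes, and arrays of different culture forms at 0.902 to 0.927. PTGS2, the gene of COX-2, went against the label of the siRNA. It read 11.32, 11.51 and 11.59 in spheres with the labelled COX-2 siRNA, against 10.30, 10.29 and 10.35 in spheres with negative siRNA, a difference of 1.16 ± 0.13 (standard error of the limma fit, adjusted p = 2.57e-07). In adherent cells it read 11.27, 11.50 and 11.20 with the labelled COX-2 siRNA, against 11.06, 10.89 and 11.02 with negative siRNA (0.33 ± 0.13, adjusted p = 0.0888). These arrays are therefore called by their label. The culture forms also differed in urothelial markers: with DMSO, KRT5, a basal keratin, averaged 12.04 in spheres and 3.62 in adherent cells, while UPK3A, a uroplakin of the bladder surface, averaged 3.81 in spheres and 11.31 in adherent cells. Of 13 such markers, 3 were higher and 8 lower in spheres with DMSO (limma, adjusted p under 0.05), beside 22.8% and 23.3% of all genes. On all arrays 7 of the 13 lay above 4.82, among them UPK1B, another uroplakin (9.11 to 12.1). KRT8 ran from 3.05 to 5.66. All 6 leukocyte markers lay under 4.82 on all arrays. Of 7 fibroblast markers 4 did, while PDGFRA (7.62 to 9.75) lay above it on all arrays and COL3A1 (3.72 to 7.29) and COL1A1 (3.80 to 6.21) on some. Of 6 adipocyte markers 4 did (ADIPOQ, PLIN1, PLIN4 and LEP), while CIDEC (4.30 to 6.77) and FABP4 (3.81 to 9.01) lay above it on some. In cells of a culture, fewer cells expressing a gene and less RNA per cell cannot be told apart.

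**Figure D1:**
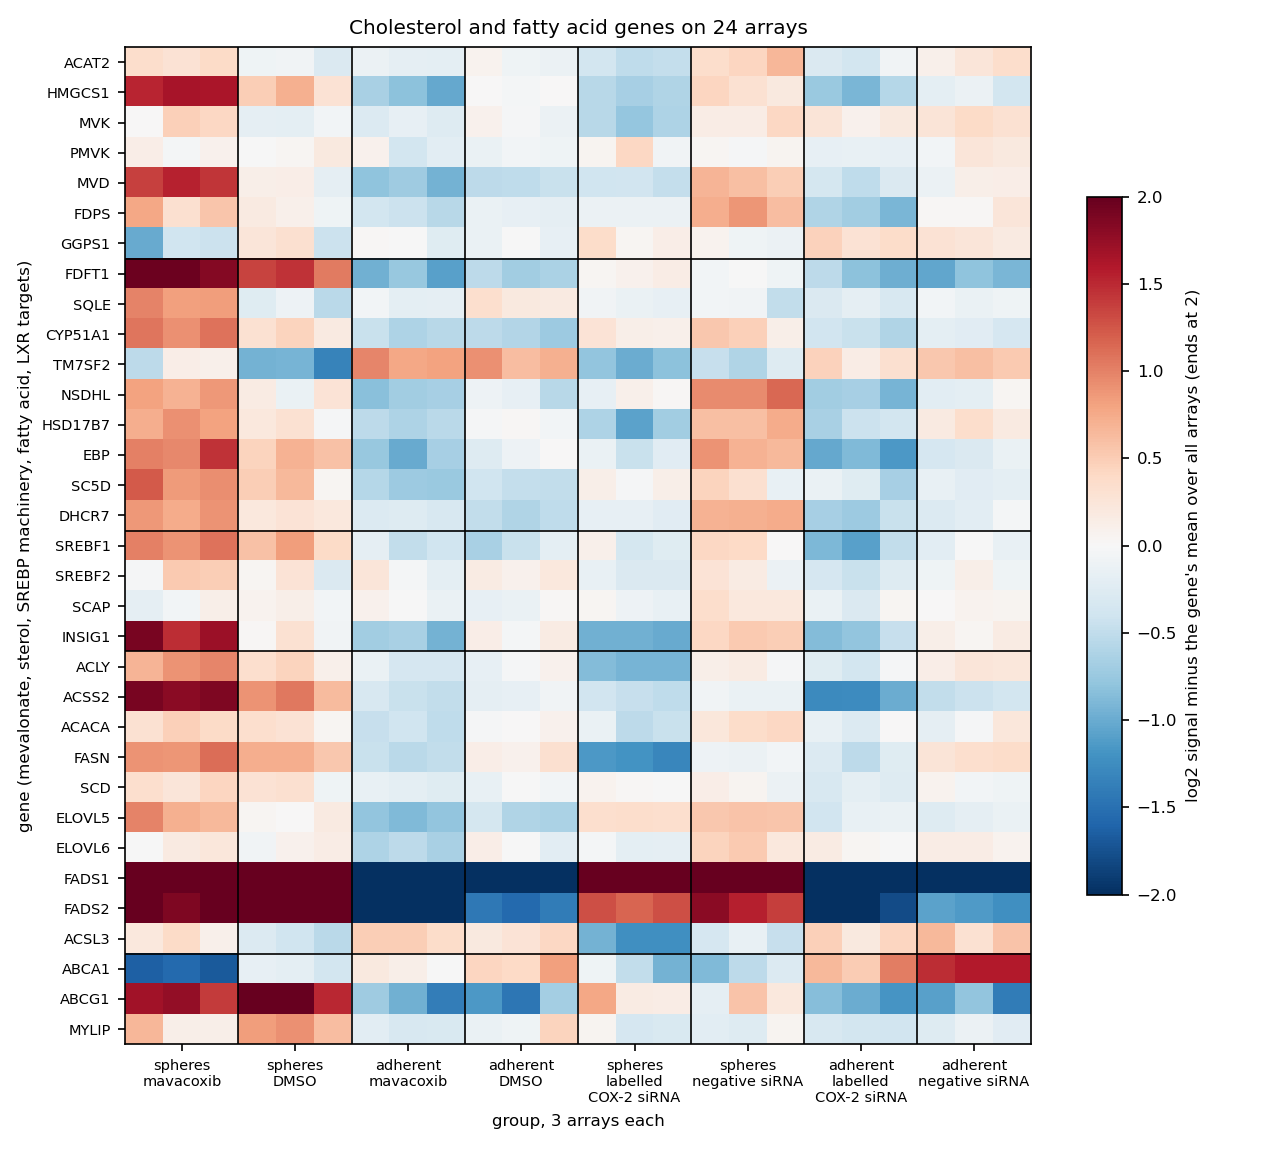
Log2 signal of the 33 measured genes (rows, by role) on 24 arrays (columns, 3 in each of 8 groups), as the difference from each gene's mean over all arrays. The colour scale ends at 2, which FADS1 and FADS2 pass between spheres and adherent cells. INSIG1, HMGCS1 and MVD are redder in spheres with mavacoxib than in the other 7 groups.

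Mavacoxib in spheres was followed by higher signal of most of the sterol branch. Of the 20 measured genes, 15 rose and 1 fell, and all 9 squalene and sterol enzymes were among those that rose. Over the 33 genes, 20 rose and 3 fell, beside 11.1% and 10.3% of all genes tested (limma, Benjamini-Hochberg adjusted p under 0.05 over all genes). The 3 that fell lay near the share of all genes. The median difference was 0.49 over the 33 genes and -0.01 over all genes.

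INSIG1, the brake on SREBP processing and itself an SREBP target, moved most. It read 11.20, 10.77 and 11.00 in spheres with mavacoxib, against 9.32, 9.60 and 9.22 in spheres with DMSO. The groups did not overlap, and the difference was 1.61 ± 0.13 or 3.05-fold (95% interval 1.34 to 1.88, adjusted p = 7.55e-09). MVD, the decarboxylase that yields isopentenyl diphosphate, read 10.46, 10.64 and 10.53 with mavacoxib, against 9.21, 9.22 and 8.91 with DMSO. Its difference was 1.43 ± 0.11 (adjusted p = 3.73e-09), and every treated array lay above every vehicle array. SQLE, the squalene epoxidase, read 11.51, 11.33 and 11.35 with mavacoxib, against 10.28, 10.42 and 9.98 with DMSO (1.17 ± 0.12, adjusted p = 3.74e-07). HMGCS1, which makes HMG-CoA, read 11.54, 11.66 and 11.65, against 10.51, 10.73 and 10.31 (1.10 ± 0.12, adjusted p = 7.89e-07). Both genes were separate on all arrays as well. In the mevalonate part, ACAT2, the cytosolic thiolase of its first step, rose by 0.49, FDPS, the farnesyl diphosphate synthase, by 0.49, and MVK, the mevalonate kinase, by 0.44, though MVK did not pass without mavacoxib array 2. PMVK, the kinase after MVK, showed no such difference (-0.02, 95% interval -0.28 to 0.25), with signals of 4.95 to 5.11 under mavacoxib, close to the median of all values. GGPS1, which makes geranylgeranyl diphosphate on a side branch away from sterols, read 6.35, 6.97 and 6.94 with mavacoxib, against 7.61, 7.69 and 6.93 with DMSO. It fell by 0.66 (adjusted p = 0.00737), but the arrays overlapped. The call was lost without mavacoxib array 1 (-0.46), without DMSO array 2 or with only the arrays of the comparison in the fit.

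The 9 squalene and sterol enzymes rose by 0.57 to 1.17. TM7SF2, a sterol reductase, read 8.88, 9.54 and 9.51 with mavacoxib, against 8.46, 8.47 and 8.07 with DMSO, a difference of 0.98 ± 0.15 (adjusted p = 7.75e-05). CYP51A1, the lanosterol demethylase, rose by 0.71. NSDHL and HSD17B7, a decarboxylating dehydrogenase and a ketoreductase of a later, separate demethylation, rose by 0.69 and 0.65, and FDFT1, the squalene synthase, by 0.64. SC5D, a sterol desaturase, and DHCR7, the reductase of a final step to cholesterol, each rose by 0.61, and EBP, the sterol isomerase, by 0.57. SC5D did not pass without mavacoxib array 1 or DMSO array 3, nor EBP when its 2 features were averaged (0.35). With only the arrays of the comparison in the fit, 7 of the 23 calls over the 33 genes were lost. These were MVK, SC5D, EBP, FDPS, GGPS1, FASN and MYLIP. For all 9 squalene and sterol enzymes the mavacoxib arrays lay above the DMSO arrays. Of the 33 genes, 22 had every mavacoxib array above every DMSO array and 1 had every one below, beside 15.9% and 14.2% of all genes. Among the regulators, SREBF1 read 8.79, 8.68 and 8.87 with mavacoxib, against 8.37, 8.62 and 8.17 with DMSO, and did not pass the test (0.39 ± 0.17, adjusted p = 0.0996). SREBF2 (0.32, adjusted p = 0.162) and SCAP (-0.09, adjusted p = 0.667) did not pass either, and their arrays overlapped.

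In the fatty acid branch of spheres, 5 of 10 genes rose with mavacoxib and 0 fell, with a median difference of 0.33. ACSS2, which makes acetyl-CoA from acetate, read 11.45, 11.36 and 11.43 with mavacoxib, against 10.45, 10.61 and 10.19 with DMSO. The groups were far apart relative to their spread, at 1.00 ± 0.11 (adjusted p = 6.58e-07). ELOVL5, an elongase of polyunsaturated fatty acids, rose by 0.71, ACSL3, which activates long-chain fatty acids, by 0.64, and ACLY, the ATP citrate lyase, by 0.56. FASN, the fatty acid synthase, read 11.45, 11.43 and 11.66, against 11.28, 11.27 and 11.09 (0.30 ± 0.10, adjusted p = 0.0414). That call was lost under 6 of the alternative settings tried, among them without any 1 of the DMSO arrays. The fatty acid desaturases SCD (0.16), FADS1 (0.35) and FADS2 (-0.04) did not pass, nor did ACACA, the acetyl-CoA carboxylase (0.17), or ELOVL6, an elongase of saturated fatty acids (0.07).

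Of the 3 LXR targets, 0 rose and 2 fell in these arrays, beside 11.1% and 10.3% of all genes. Only the ABCA1 call held under all alternatives. Of 11 other oxysterol and LXR genes, 2 rose and 2 fell. ABCA1, the cholesterol efflux pump, read 5.61, 5.69 and 5.56 in spheres with mavacoxib, against 7.08, 7.04 and 6.87 with DMSO. The drop of 1.38 ± 0.18, or 2.60-fold, was the largest fall of the 33 genes with mavacoxib in either culture form (adjusted p = 8.96e-06). MYLIP, an E3 ligase that degrades lipoprotein receptors, fell by 0.49 (adjusted p = 0.0297), with overlapping arrays, and was lost under 5 settings, including without either of DMSO arrays 1 and 2 or mavacoxib arrays 2 and 3. ABCG1, another cholesterol transporter, differed by -0.43 and did not pass (adjusted p = 0.264).

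In adherent cells the same dose was followed by lower signal. Of the 33 genes, 0 rose and 8 fell, beside 2.61% and 1.5% of all genes, and the median difference was -0.28 over the list and 0.04 over all genes. The 8 were 4 of the sterol branch (HMGCS1, HSD17B7, EBP and INSIG1) and 4 fatty acid enzymes (ACACA, FASN, ELOVL6 and FADS2). INSIG1 read 8.60, 8.64 and 8.35 with mavacoxib, against 9.42, 9.26 and 9.46 with DMSO (-0.85 ± 0.13, adjusted p = 0.000332). HMGCS1 read 9.37, 9.19 and 9.00, against 10.02, 9.98 and 10.02 (-0.82 ± 0.12, adjusted p = 0.000261). Both were lower in all 3 treated arrays than in any vehicle array. FADS2, the desaturase of the first step from linoleate, read 7.02, 6.72 and 6.74, against 7.64, 7.50 and 7.66 (-0.77 ± 0.13, adjusted p = 0.00109). EBP fell by 0.69, FASN by 0.67, ELOVL6 by 0.57 and HSD17B7 by 0.54. ACACA fell by 0.48 (adjusted p = 0.0264), a call that was lost without any 1 of the 6 arrays. The count of 8 depended on the scaling, with 0 higher and 14 lower when arrays were shifted to 1 median, a step that also moved the median of all genes by -0.113.

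Of the other 25 genes, several differed in the same direction without passing. NSDHL read 8.81, 8.95 and 8.99 with mavacoxib, against 9.55, 9.48 and 9.09 with DMSO (-0.46, adjusted p = 0.0558). SQLE (-0.38, adjusted p = 0.0847), MVD (-0.32) and FDFT1 (-0.32) had no overlap between the groups. In all, 19 of the 33 genes had every mavacoxib array below every DMSO array and 1 had every one above, beside 9.08% and 18.1% of all genes. DHCR7 was the 1 above, at 0.25 (adjusted p = 0.166). None of the LXR targets passed, with ABCA1 at -0.44, MYLIP at -0.35 and ABCG1 at 0.08.

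**Figure D2:**
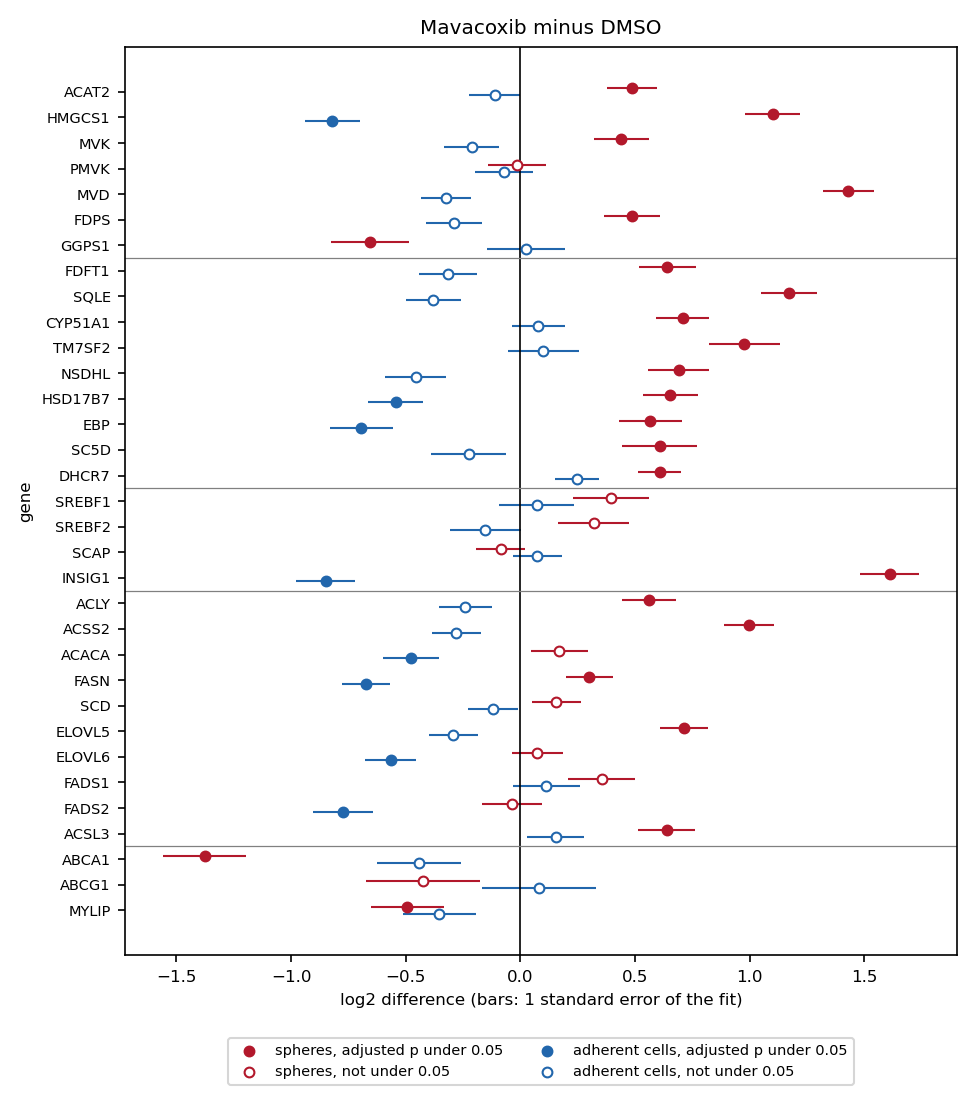
Log2 difference between mavacoxib and DMSO for each of the 33 genes (rows, by role), in spheres (red) and adherent cells (blue), with 1 standard error of the fit from 3 arrays a group. Filled points passed the test at an adjusted p under 0.05. The sterol enzymes lie right of 0 in spheres, and no adherent point that passed does.

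Whether the response differed between the culture forms was tested directly, as the mavacoxib difference in spheres minus that in adherent cells. Over the 33 genes, 21 were higher and 1 was lower in spheres by this test, beside 4.49% and 5.82% of all genes. The median was 0.65, against -0.04 for all genes. The sterol branch gave 14 of 20 higher and 0 lower, and the fatty acid branch 7 of 10 higher and 0 lower. INSIG1 had the largest such difference, 2.46 ± 0.18 (adjusted p = 1.71e-08), followed by HMGCS1 at 1.92 ± 0.17 and MVD at 1.75 ± 0.15. SQLE followed at 1.55, ACSS2 at 1.28, EBP at 1.26, HSD17B7 at 1.20 and NSDHL at 1.15. In the fatty acid branch, ELOVL5 stood at 1.01, FASN at 0.97, ACLY at 0.80, FADS2 at 0.74, ACACA at 0.65 and ELOVL6 at 0.64. For ACACA, ELOVL6 and FADS2 the difference came with a fall in adherent cells and no call in spheres. ABCA1 was the 1 gene lower, at -0.93 ± 0.26 (adjusted p = 0.0212). That 1 gene lay below the share of all genes, and its call was lost under 4 settings. The regulators SREBF1 (0.32), SREBF2 (0.47) and SCAP (-0.16) did not pass.

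Other gene lists moved on the same arrays. With mavacoxib, 10 of 11 endoplasmic reticulum stress genes rose in spheres and 6 of 11 in adherent cells, with 0 lower in both, DDIT3 by 1.68 in spheres and 1.81 in adherent cells. The mean log2 signal of that list was 10.39 to 10.54 in spheres with mavacoxib, against 9.00 to 9.31 with DMSO, and 9.38 to 9.45 in adherent cells with mavacoxib, against 8.70 to 8.81. Of 14 interferon genes, 9 rose in spheres and 0 fell, while 5 rose and 1 fell in adherent cells. Of 9 proliferation genes, 3 rose and 1 fell in spheres, and 0 rose and 7 fell in adherent cells. Of all genes, 11.1% rose and 10.3% fell in spheres, and 2.61% rose and 1.5% fell in adherent cells. The 1 of 9 proliferation genes that fell in spheres was near that share. The part of these lists in the lipid genes' differences was not tested.

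Genes of the same pathways outside the list were also counted. Of 19 measured of 26 further sterol genes, 0 passed with mavacoxib in adherent cells (0 of them also at an unadjusted p under 0.05), while 1 rose and 3 fell in spheres, beside the 11.1% and 10.3% of all genes given above. The 1 that rose was NPC1, which exports cholesterol from lysosomes (0.60 ± 0.14). FNTB, a subunit of the enzyme that attaches farnesyl groups to proteins, fell by 1.01. Among 29 further fatty acid genes, 9 rose and 5 fell in spheres, and 1 rose and 1 fell in adherent cells. The adherent counts lay near the shares of all genes, 2.61% and 1.5%. LPIN1, a phosphatidate phosphatase known as an SREBP target, read 9.89, 9.86 and 9.82 in spheres with mavacoxib, against 8.03, 8.41 and 7.55 with DMSO. In adherent cells LPIN1 read 6.03, 5.95 and 6.02, against 6.80, 6.58 and 6.78. The differences were 1.86 ± 0.17 in spheres (adjusted p = 5.22e-08) and -0.72 ± 0.17 in adherent cells (adjusted p = 0.0136), the same split as INSIG1. LPCAT3, a lysophospholipid acyltransferase, was also higher in spheres (0.78 ± 0.10) and lower in adherent cells (-0.53 ± 0.10). Of 11 oxysterol and LXR genes, LPCAT3 included, 2 rose and 2 fell in spheres, and 0 rose and 1 fell in adherent cells.

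With the labelled COX-2 siRNA, the list was lower in spheres. Of the 33 genes, 0 rose and 20 fell, beside 15.8% and 23.3% of all genes, with a median difference of -0.43 over the list and -0.04 over all genes. The sterol branch gave 13 of 20 lower and the fatty acid branch 7 of 10. When arrays were shifted to 1 median, 1 gene was higher and 16 were lower, and the median of all genes moved by 0.15.

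INSIG1 read 8.33, 8.33 and 8.28 in spheres with the labelled COX-2 siRNA, against 9.71, 9.82 and 9.78 with negative siRNA. The difference was -1.46 ± 0.13 (adjusted p = 7.93e-09) with no overlap. HSD17B7 read 7.03, 6.57 and 6.95, against 8.24, 8.24 and 8.38 (-1.44 ± 0.12, adjusted p = 3.48e-09). FASN read 9.40, 9.35 and 9.24, against 10.45, 10.43 and 10.49 (-1.13 ± 0.10, adjusted p = 1.45e-08). These 3 genes had the smallest adjusted p of the list here. In the mevalonate part, MVD fell by 1.01, ACAT2 by 0.94, HMGCS1 by 0.92, MVK by 0.89 and FDPS by 0.86. FDPS read 9.04 on each of the 3 labelled COX-2 siRNA arrays, against 9.88, 10.04 and 9.77 with negative siRNA. PMVK (0.11) and GGPS1 (0.23) did not pass, and their arrays overlapped.

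The later sterol enzymes were split in these spheres. NSDHL and EBP each fell by 1.02, DHCR7 by 0.91 and TM7SF2 by 0.42. FDFT1 read 9.85, 9.90 and 9.96, against 9.75, 9.80 and 9.73, a difference of 0.14 (adjusted p = 0.404). SQLE (0.09), CYP51A1 (-0.21) and SC5D (-0.13) did not pass, and their arrays overlapped. The 4 genes that did not pass had all risen with mavacoxib in spheres. SREBF1 fell by 0.43 (adjusted p = 0.0416) with overlapping arrays, and SCAP by 0.33 (adjusted p = 0.0179). Both were lost when arrays were shifted to 1 median, as were TM7SF2 and ACSS2. In all, the SREBF1 call was lost under 8 settings, SCAP and TM7SF2 under 5 each, and ACSS2 under 4. SREBF2 differed by -0.35 and did not pass (adjusted p = 0.0825).

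Among the fatty acid enzymes of these spheres, ACLY read 10.33, 10.27 and 10.27 with the labelled COX-2 siRNA, against 11.31, 11.36 and 11.18 with negative siRNA (-0.99 ± 0.12, adjusted p = 5.34e-07). ACSL3 fell by 0.82, ACACA by 0.71, FADS1 by 0.60, ELOVL6 by 0.54 and ACSS2 by 0.34. FADS1, the desaturase after FADS2, read 10.46, 10.50 and 10.42, against 11.22, 11.15 and 10.80. SCD read 12.21, 12.16 and 12.12, against 12.26, 12.19 and 12.01, and did not differ beyond that spread (0.01, 95% interval -0.21 to 0.23). FADS2 (-0.33, adjusted p = 0.0552) and ELOVL5 (-0.22) did not pass. None of the 3 LXR targets did: ABCA1 read 7.16, 6.75 and 6.29, against 6.36, 6.72 and 6.96 (0.05, adjusted p = 0.852).

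With the labelled COX-2 siRNA in adherent cells, 0 of the 33 genes rose and 15 fell, beside 6.42% and 8.59% of all genes. The median difference was -0.28 over the list and -0.05 over all genes. The sterol branch gave 10 of 20 lower, and the fatty acid branch 4 of 10. FDPS read 8.55, 8.45 and 8.23 with the labelled COX-2 siRNA, against 9.18, 9.18 and 9.39 with negative siRNA (-0.84 ± 0.12, adjusted p = 4.11e-05). INSIG1 read 8.43, 8.50 and 8.83, against 9.41, 9.34 and 9.46 (-0.82 ± 0.13, adjusted p = 0.000126). FADS2 read 6.86, 6.85 and 7.27, against 7.99, 7.93 and 7.84 (-0.93 ± 0.13, adjusted p = 3.85e-05). All 3 were separate on all arrays. In all, 23 of the 33 genes had every labelled COX-2 siRNA array below every negative siRNA array. Only 1 had every one above, beside 19.3% below and 13.8% above of all genes. EBP fell by 0.77, ACSS2 by 0.74, HSD17B7 by 0.72, SREBF1 by 0.70, FASN by 0.67 and NSDHL by 0.64. HMGCS1 fell by 0.52, ACAT2 by 0.47, MVD by 0.43, DHCR7 by 0.43 and ACLY by 0.41. ACLY did not pass without any 1 of 4 arrays (labelled COX-2 siRNA 1 and 2, negative siRNA 2 and 3), MVD without labelled COX-2 siRNA array 2 or negative siRNA array 3, and EBP with averaged features (-0.41). ACLY, MVD and DHCR7 did not pass with only the arrays of the comparison in the fit. The 15th gene was ABCA1, which read 7.88, 7.74 and 8.26, against 8.72, 8.83 and 8.82 (-0.83 ± 0.18, adjusted p = 0.00321). FADS1 differed by 0.38 from signals of 3.65 to 3.67 and did not pass, and FDFT1 (0.14), SQLE (-0.17), CYP51A1 (-0.23), SC5D (-0.15) and SCD (-0.23) did not pass either.

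**Figure D3:**
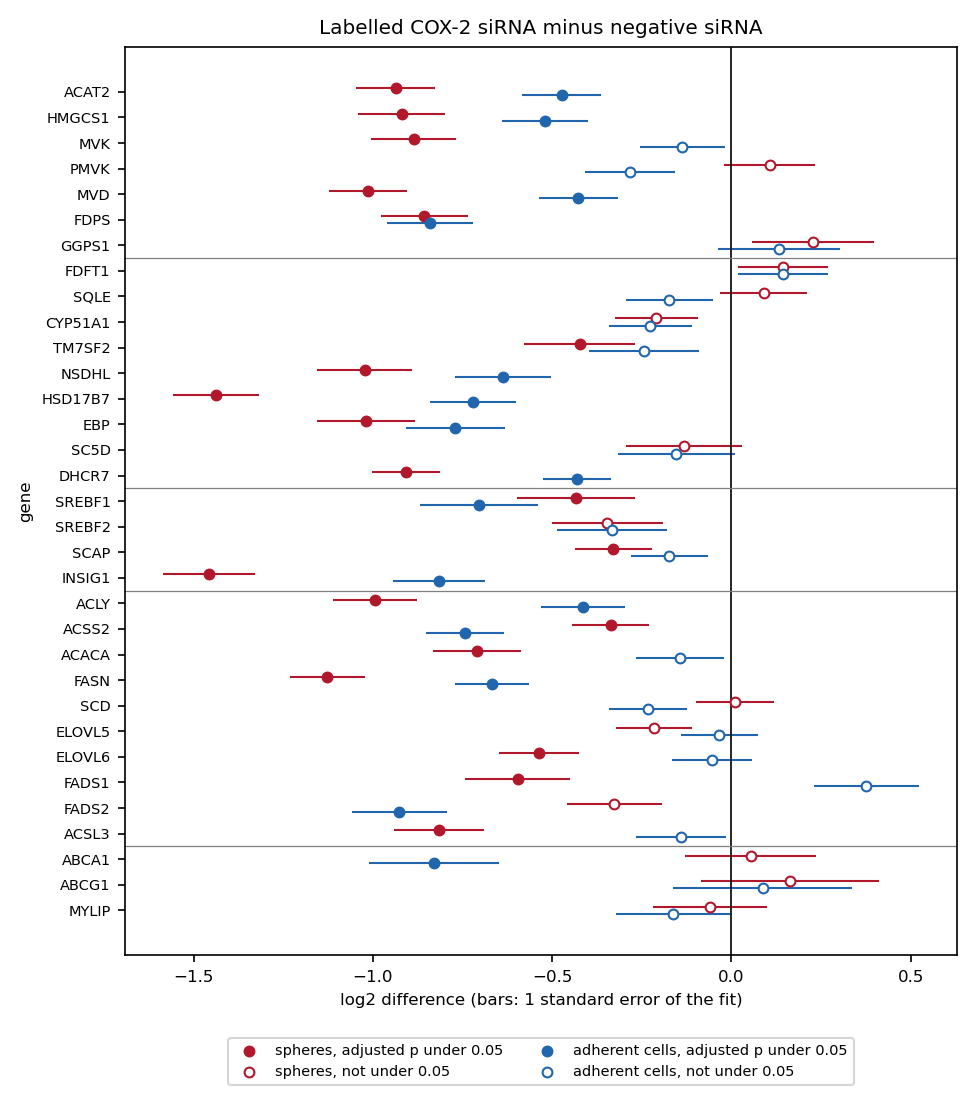
Log2 difference between the labelled COX-2 siRNA and negative siRNA for each of the 33 genes (rows, by role), in spheres (red) and adherent cells (blue), with 1 standard error of the fit from 3 arrays a group. Filled points passed at an adjusted p under 0.05. All filled points lie left of 0, and SQLE, SC5D, CYP51A1 and FDFT1 are open in both culture forms.

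The response to the labelled siRNA was also tested for a difference between culture forms. Of the 33 genes, 2 were higher and 12 lower in spheres by this test, beside 6.74% and 8.53% of all genes, with a median of -0.18. The 12 were MVK (-0.75), HSD17B7 (-0.72), INSIG1 (-0.64), MVD (-0.59), DHCR7 (-0.48) and ACAT2 (-0.46) of the sterol branch, and FADS1 (-0.97), ACSL3 (-0.68), ACLY (-0.58), ACACA (-0.57), ELOVL6 (-0.48) and FASN (-0.46) of the fatty acid branch. The 2 higher, ABCA1 (0.88) and FADS2 (0.60), lay near the share of all genes, and both calls were lost under some alternatives. The count of 14 rested on single arrays. It was 8 without adherent labelled COX-2 siRNA array 1, without adherent negative siRNA array 1 or without sphere negative siRNA array 2. It was 9 without adherent labelled COX-2 siRNA array 3, without sphere labelled COX-2 siRNA array 3 or without adherent negative siRNA array 2. Only 5 of the 14 calls held under all alternatives tried, and in adherent cells FADS1 started from a signal under 4.82. The split was 3 higher and 7 lower when arrays were shifted to 1 median.

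Interferon genes stood far higher on the labelled COX-2 siRNA arrays. All 14 measured rose in both culture forms. Their mean log2 signal was 10.18 to 10.21 in spheres with the labelled COX-2 siRNA, against 5.60 to 5.62 with negative siRNA, and 9.53 to 9.69 in adherent cells, against 5.61 to 5.72. Of 9 proliferation genes, 0 rose and 8 fell in spheres, and 0 rose and 2 fell in adherent cells. Endoplasmic reticulum stress genes were divided, with 6 higher and 3 lower of 11 in spheres, and 1 higher and 3 lower in adherent cells. Their part in the lower lipid genes was not tested. Lipid genes outside the list also changed: 3 of 19 further sterol genes rose and 10 fell in spheres, and 2 rose and 6 fell in adherent cells. The shares of all genes were, as above, 15.8% and 23.3% in spheres and 6.42% and 8.59% in adherent cells, and the counts of risen lipid genes in spheres lay near or below theirs. SOAT1, which esterifies cholesterol for storage, was higher with the labelled COX-2 siRNA in both forms, by 1.11 ± 0.16 in spheres and 1.13 ± 0.16 in adherent cells. Further fatty acid genes gave 5 of 29 higher and 12 lower in spheres, and 4 higher and 4 lower in adherent cells. CPT1A, which admits fatty acids to mitochondria for oxidation, rose by 1.30 in spheres, while ME1 and SLC25A1, which supply NADPH and citrate for fatty acid synthesis, fell by 1.15 and 1.08. Oxysterol and LXR genes gave 1 of 11 higher and 3 lower in spheres, near the shares of all genes, and 0 higher and 2 lower in adherent cells. LPCAT3 fell by 0.65 in spheres and by 0.66 in adherent cells.

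**Figure D4:**
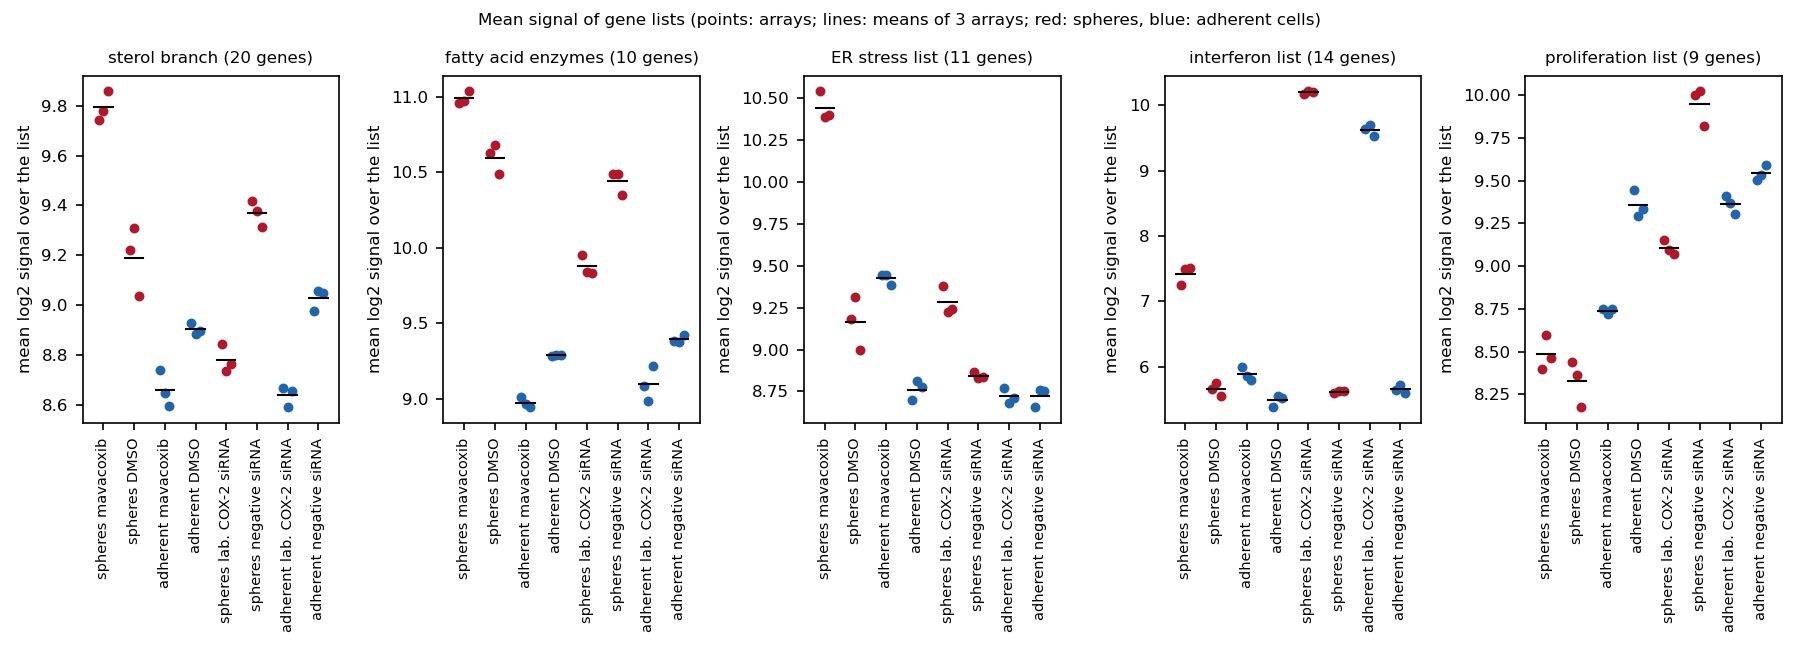
Mean log2 signal of 5 gene lists on each array (points) in the 8 groups, with group means (lines), for spheres in red and adherent cells in blue. The sterol branch averaged 9.79 in spheres with mavacoxib, against 9.19 with DMSO, and the interferon list averaged 10.20 in spheres with the labelled COX-2 siRNA, against 5.62 with negative siRNA.

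Side by side, the 4 treatment comparisons called 29 of the 33 genes at least once. In all 4 of them 5 genes were called, HMGCS1, HSD17B7, EBP, INSIG1 and FASN, each higher with mavacoxib in spheres and lower in the other 3. HMGCS1, HSD17B7 and INSIG1 held in all 4 under every alternative run. EBP did not pass in 3 of the 4 when its features were averaged, with -0.29 for mavacoxib in adherent cells, and FASN was lost under 6 settings for mavacoxib in spheres. Of the 20 genes that rose with mavacoxib in spheres and the 20 that fell with the labelled COX-2 siRNA in spheres, 15 were shared, 75% of each. Of all 33 genes, 60.6% fell with that siRNA in spheres. The 8 genes lower with mavacoxib in adherent cells and the 20 higher with it in spheres shared 5, or 62.5% and 25%. Of all 33 genes, 24.2% were lower with mavacoxib in adherent cells, and 20 were higher with it in spheres. The 25% and the 62.5% thus both lay near the shares of the whole list. The 20 genes lower with the labelled COX-2 siRNA in spheres and the 15 lower in adherent cells shared 13, or 65% and 86.7%. The shares of the whole list were 45.5% lower in adherent cells and 60.6% lower in spheres. Overlaps over all genes were not counted. PMVK, SREBF2, SCD and ABCG1 were called in none of the 4. SREBF2 read 9.39, 9.94 and 9.90 in spheres with mavacoxib, against 9.45, 9.69 and 9.13 with DMSO, and its widest difference in the 4 was -0.35.

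The mean log2 signal of the sterol branch was 9.79 in spheres with mavacoxib, against 9.19 with DMSO, and 8.66 in adherent cells with mavacoxib, against 8.90 with DMSO. It was 8.78 in spheres with the labelled COX-2 siRNA, against 9.37 with negative siRNA, and 8.64 in adherent cells, against 9.03. For the fatty acid branch the pairs were 10.99 and 10.60 in spheres with mavacoxib and with DMSO, and 8.97 and 9.29 in adherent cells. With the labelled COX-2 siRNA and negative siRNA they were 9.88 and 10.44 in spheres, and 9.10 and 9.39 in adherent cells. Within this branch FADS1 and FADS2 differed most between spheres and adherent cells.

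Those 2 desaturases, which in sequence make long polyunsaturated fatty acids, separated the culture forms. FADS1 read 11.09, 11.16 and 10.98 in spheres with DMSO, against 3.73, 4.0 and 3.48 in adherent cells with DMSO. With negative siRNA it read 11.22, 11.15 and 10.80 in spheres, against 3.65, 3.65 and 3.67 in adherent cells. The differences of 7.34 ± 0.15 (adjusted p = 1.88e-20) and 7.40 ± 0.15 (adjusted p = 2.53e-20) are lower bounds if the adherent signal was background. FADS2 read 11.05, 11.26 and 11.06 in spheres with DMSO, against 7.64, 7.50 and 7.66 in adherent cells (3.52 ± 0.13, adjusted p = 5.15e-16), and differed by 2.72 ± 0.13 with negative siRNA. Genes next to FADS2 in a canid gene table, looked at after these values were seen, were mixed with DMSO. FADS1 was not found beside FADS2 in that table. RAB3IL1 was higher in spheres by 2.31, MYRF by 1.06 and FADS3, another member of the desaturase family, by 0.64, while TMEM258 was lower (-0.85), as was DAGLA (-1.51).

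With DMSO, 17 of the 33 genes were higher and 4 lower in spheres than in adherent cells, beside 22.8% and 23.3% of all genes, with a median of 0.32 over the list and -0.03 over all genes. With negative siRNA 16 were higher and 4 lower, beside 20.5% and 22.1%, with a median of 0.33. In both pairs the 4 lower lay below the share of all genes. The sterol branch gave 9 higher and 2 lower with DMSO, and 10 higher and 1 lower with negative siRNA. FDFT1 read 11.17, 11.26 and 10.85 in spheres with DMSO, against 9.29, 9.11 and 9.18 in adherent cells (1.90 ± 0.12, adjusted p = 1.23e-11). TM7SF2 was the reverse, at 8.46, 8.47 and 8.07 in spheres, against 10.32, 10.03 and 10.12 in adherent cells (-1.82 ± 0.15, adjusted p = 9.75e-10). With negative siRNA the differences were 0.87 for FDFT1 and -1.0 for TM7SF2, in the same directions. SREBF1 was higher in spheres with DMSO by 1.03 ± 0.17 (adjusted p = 1.58e-05), and by 0.39 with negative siRNA, where it did not pass (adjusted p = 0.0621). CYP51A1 was higher by 0.93 and 0.63 in the 2 pairs, DHCR7 by 0.76 and 0.90, EBP by 0.69 and 1.00, HMGCS1 by 0.51 and 0.54, MVD by 0.51 and 0.55, and NSDHL by 0.38 (with overlapping arrays) and 1.13. With DMSO, EBP did not pass when its features were averaged (0.12), and the NSDHL call was lost under 5 settings.

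INSIG1 did not pass between the culture forms with DMSO, at 9.32, 9.60 and 9.22 in spheres and 9.42, 9.26 and 9.46 in adherent cells (0.00, 95% interval -0.27 to 0.27). With negative siRNA it read 9.71, 9.82 and 9.78 in spheres, against 9.41, 9.34 and 9.46 in adherent cells, and was higher (0.37 ± 0.13, adjusted p = 0.0246). That call was lost when arrays were shifted to 1 median and without either of sphere arrays 2 and 3 or adherent arrays 1 and 2. SCD, at 12.42, 12.46 and 12.05 in spheres against 11.98, 12.12 and 12.08 in adherent cells, did not pass (0.25, adjusted p = 0.065). In the fatty acid branch 6 genes were higher and 1 lower with DMSO, and 5 higher and 2 lower with negative siRNA. ACSS2 was higher by 1.00 and 0.32 (the second lost without array 1 of either group) and ELOVL5 by 0.60 and 0.75, while ACSL3 was lower, at -0.70 and -0.82. FASN was higher in spheres with DMSO (0.49 ± 0.10, adjusted p = 0.000413) but lower with negative siRNA (-0.41 ± 0.10, adjusted p = 0.00223). Among the LXR targets, ABCG1 read 6.61, 6.86 and 5.95 in spheres with DMSO, against 3.28, 2.99 and 3.75 in adherent cells (3.13 ± 0.25, a lower bound if the adherent signal was background). With negative siRNA it read 4.25, 5.01 and 4.64 in spheres, against 3.35, 3.64 and 3.04 in adherent cells (1.29 ± 0.25, adjusted p = 0.000174), with both group means under 4.82. ABCA1 was lower in spheres, at -0.79 ± 0.18 with DMSO and -2.11 ± 0.18 with negative siRNA. LIPA, the lysosomal lipase that frees cholesterol from lipoprotein esters, read 2.22, 2.65 and 2.72 in spheres with DMSO, against 8.28, 8.34 and 8.66 in adherent cells. Its 12 sphere arrays lay under 4.82 and its 12 adherent arrays above. Of 19 measured further sterol genes, LIPA included, 5 were higher and 7 lower in spheres with DMSO, beside 22.8% and 23.3% of all genes. All 9 proliferation genes were lower in spheres with DMSO, and 5 were higher and 0 lower with negative siRNA.

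**Figure D5:**
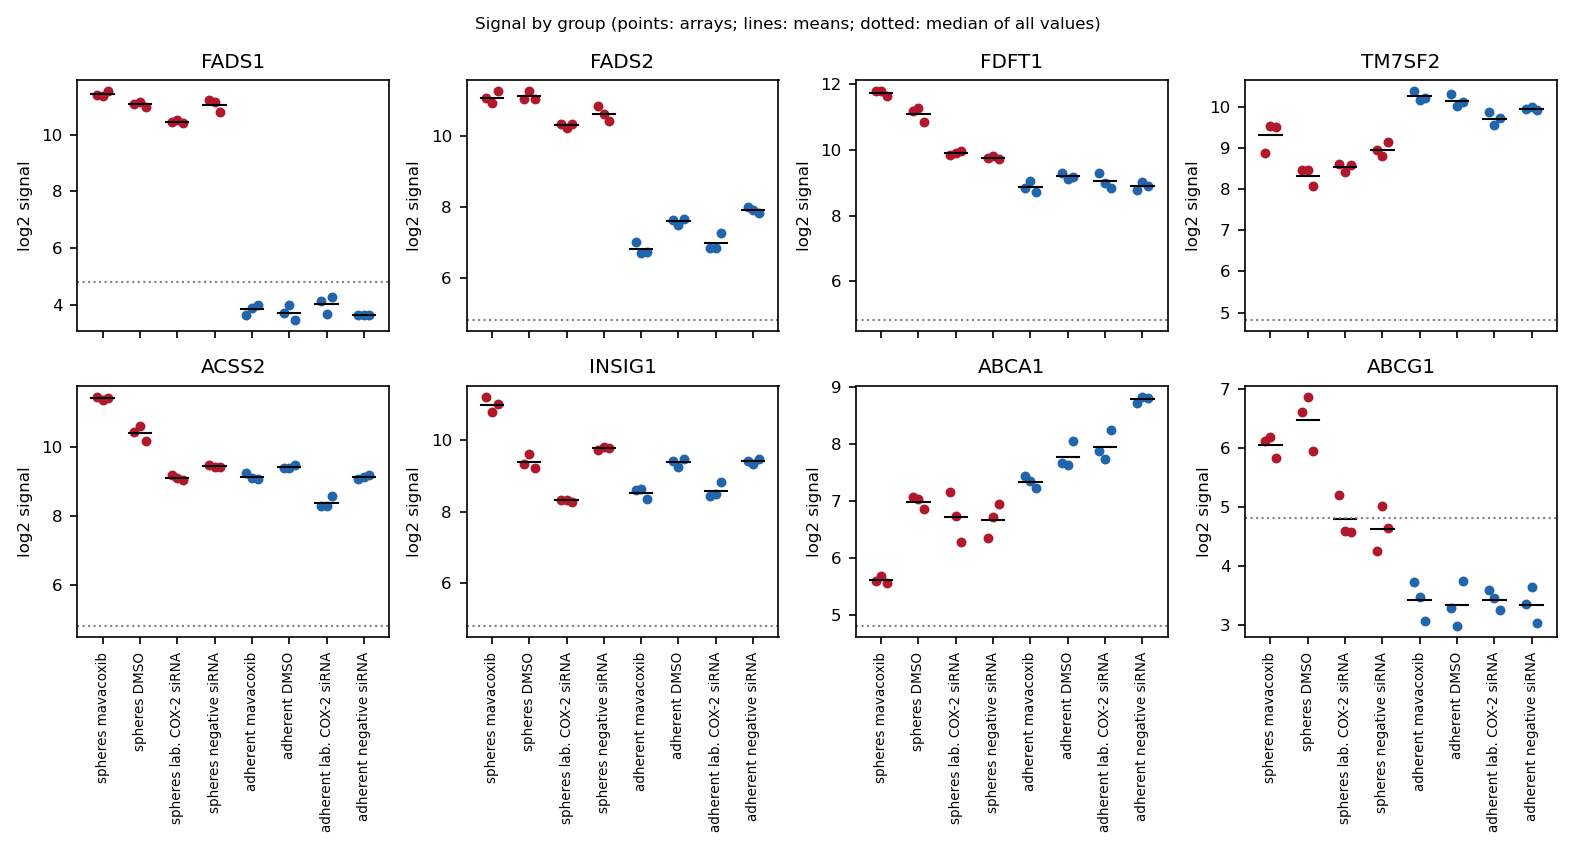
Log2 signal of 8 genes on each array (points) with group means (lines), in spheres (red) and adherent cells (blue), with the median of all values, 4.82, as a dotted line. FADS1 lies under that line on all adherent arrays and above 10 in spheres, while INSIG1 is similar in spheres and adherent cells with DMSO and spread apart by treatment.

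Negative siRNA and DMSO differ in agent and in hours, 48 against 24. By the labels, transfected cells of both forms were plated in anchorage dependent conditions, whereas spheres were otherwise kept in ultralow attachment plates. For spheres the plating may therefore differ as well, and these differences cannot be told apart. In spheres, 11 of the 33 genes were higher with negative siRNA and 6 lower, beside 19% and 16.4% of all genes. The 6 lower lay near the share of all genes. FDFT1 was lower (-1.33 ± 0.12, adjusted p = 1.82e-08), as were ACSS2 (-0.97), MYLIP (-0.93), FASN (-0.76), FADS2 (-0.49) and ABCG1 (-1.84). NSDHL was higher by 0.91, FDPS by 0.68, ACAT2 and TM7SF2 by 0.63 and MVD by 0.58. On the same arrays all 9 proliferation genes were higher with negative siRNA, with a median of 1.58. Of 11 endoplasmic reticulum stress genes 0 were higher and 6 lower, of 13 urothelial markers 1 and 6, and of 7 fibroblast markers 0 and 3. Their part in the lipid genes' differences was not tested. In adherent cells 5 were higher and 0 lower, beside 8.74% and 5.11% of all genes: ABCA1 (1.00), MVD (0.54), CYP51A1 (0.36), DHCR7 (0.35) and ELOVL5 (0.34). After quantile normalization that split was 4 higher and 3 lower, and after a shift to 1 median 3 higher and 1 lower. The count of 5 fell to 2 without adherent DMSO array 2 or without adherent negative siRNA array 3, and to 3 without adherent DMSO array 3 or without either of adherent negative siRNA arrays 1 and 2.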

How the data were processed

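Total RNA of 24 K9TCC samples was hybridised to Affymetrix Canine Gene 1.1 ST arrays. The values are log2 signals deposited by the authors, made with Affymetrix Expression Console 1.1 per the submitters' processing notes. How features were summarised and arrays normalized is not given in the sources used here. Of 27766 features, 16878 carried 1 gene symbol in the platform annotation, 289 several and 10599 none. The brightest feature of each symbol was kept, which gave 16295 genes, 14154 of them (32 of the 33 list genes) with a symbol in a gene table of the wolf assembly mCanLup2.hap1, which was used for names and gene order only. No sequence was used here.

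A model of 8 group means was fitted to the 16295 genes (limma 3.58.1 under R 4.3.3: lmFit, contrasts.fit, eBayes), with 16 residual degrees of freedom, with p-values adjusted by Benjamini-Hochberg over all genes in each comparison and a threshold of 0.05. Errors are standard errors of that fit. The script was checked on simulated data. All measured list genes are named. Of the other lists, up to 4 genes with the smallest adjusted p in a comparison could be named, with PTGS2. The list genes, the other lists and the tests were chosen with earlier results of these data known. The number of arrays limits the precision, and the labels do not say whether the 3 samples of a group are separate cultures, so the spread behind the p-values may be technical only. The labels also do not say what a replicate number shares, so samples were not paired by it. Alternatives were quantile normalization, a shift of arrays to 1 median, a filter on dim genes, array weights, a fit to the compared arrays only, averaged features, a variance with trend and robust fit, a replicate block, and leaving out each array.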

Additional observations from a re-analysis of the deposited data

Results flagged for a closer look

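For 22 genes the log2 response to mavacoxib differed between spheres and adherent cells by the test of the difference itself (limma, adjusted p under 0.05 over all genes). As the response in spheres minus that in adherent cells, the values were INSIG1 (2.46), HMGCS1 (1.92), MVD (1.75), SQLE (1.55), ACSS2 (1.28), EBP (1.26), HSD17B7 (1.20), NSDHL (1.15), ELOVL5 (1.01), FASN (0.97), FDFT1 (0.96), TM7SF2 (0.88), SC5D (0.83), ACLY (0.80), FDPS (0.78), FADS2 (0.74), MVK (0.65), ACACA (0.65), ELOVL6 (0.64), CYP51A1 (0.63), ACAT2 (0.60), ABCA1 (-0.93). The call was lost under at least 1 alternative for SC5D and ABCA1.

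For 14 genes the response to the labelled COX-2 siRNA differed in the same test. The 2 that were higher in spheres lay near the 6.74% of all genes. The values were ABCA1 (0.88), FADS2 (0.60), FASN (-0.46), ACAT2 (-0.46), DHCR7 (-0.48), ELOVL6 (-0.48), ACACA (-0.57), ACLY (-0.58), MVD (-0.59), INSIG1 (-0.64), ACSL3 (-0.68), HSD17B7 (-0.72), MVK (-0.75), FADS1 (-0.97). Of these, 9 lost the call under at least 1 alternative: ABCA1, ACACA, ACAT2, ACLY, DHCR7, ELOVL6, FADS2, FASN and INSIG1. Those that held under all were MVK, MVD, HSD17B7, FADS1 and ACSL3. PTGS2 was not lower on the arrays with this label.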

How the results depend on the processing

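Of 165 calls of list genes over the 10 comparisons, 125 held under every alternative run. Of 2523 values under alternatives, 2337 kept the direction and the call, 186 kept the direction and lost the call, and 0 reversed. For mavacoxib in adherent cells, 8 genes were called, 14 with arrays shifted to 1 median and 16 with array weights. For the difference between culture forms in the labelled siRNA response, 14 were called, 7 with only the arrays of the comparison and 8 to 13 leaving out 1 array. For negative siRNA against DMSO in adherent cells, 5 were called, 9 without dim genes, 2 with only the arrays of the comparison, 9 with trend and robust variance, 10 with array weights and 2 to 4 leaving out 1 array. The causes were not tested. With the replicate block the counts in spheres and adherent cells were 23 and 8 for mavacoxib, against 23 and 8 without it, and 19 and 15 for the labelled siRNA, against 20 and 15. Same-numbered samples deviated together in 8 of 24 pairs (correlation over 0.1), within a range of -0.171 to 0.266. These values cannot settle whether the numbers mark pairs, and the numbers were not taken as pairs. Scaling moved the share of higher calls over all genes. For mavacoxib in adherent cells it was 63.5%, against 48.8% after quantile normalization and 34.5% after a shift to 1 median. The shift gave 57.8% against 40.4% for the labelled siRNA in spheres, 66.6% against 43.6% for the difference in the mavacoxib response and 63.7% against 44.2% for that in the labelled siRNA response. It moved the median of all genes by -0.11 between spheres and adherent cells with DMSO, and by 0.143 and 0.137 in the 2 differences of responses. EBP alone had a second feature, dimmer on average (2.20), which was called in no comparison, and averaging the features lost EBP calls. Signals under 4.82 limit what FADS1, ABCG1 and PMVK can show.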

Other observations

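Some lipid genes outside the list differed between the culture forms with both control agents. Of 11 oxysterol and LXR genes, 2 were higher and 2 lower in spheres with DMSO, and 0 and 3 with negative siRNA. Of 29 further fatty acid genes, 14 were higher and 5 lower with DMSO, and 11 and 7 with negative siRNA. The shares of all genes were 22.8% and 23.3% with DMSO, and 20.5% and 22.1% with negative siRNA. The oxysterol and LXR counts lay near or below those shares. CYP7B1 and CYP27A1, which hydroxylate oxysterols and cholesterol, were lower in spheres than in adherent cells, at -3.22 ± 0.20 and -2.66 ± 0.19 with DMSO and -2.21 ± 0.20 and -2.05 ± 0.19 with negative siRNA (limma, all 4 with an adjusted p under 0.05). SCD5, a desaturase related to SCD, was lower too, at -1.73 with DMSO and -3.08 with negative siRNA, whereas SCD itself passed in neither. ELOVL4, an elongase of very long chains, was higher in spheres by 2.34 and 2.50. FABP4, a fatty acid carrier of adipocytes and other cells, averaged 8.91 in spheres with DMSO and 4.01 in adherent cells with DMSO, and 6.34 and 4.62 with negative siRNA, while ADIPOQ, PLIN1, PLIN4 and LEP lay under 4.82 on all arrays. CIDEC, a lipid droplet protein also listed as an adipocyte marker, went the other way, with means of 4.72 in spheres and 5.93 in adherent cells with DMSO, and 5.93 and 6.73 with negative siRNA. With mavacoxib, FABP4 fell by 0.68 in spheres and rose by 0.96 in adherent cells.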
